A study of Mus musculus with 18 samples.

Results

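At E11.5 of mouse development, 151 genes expressed in mesoderm, neural tube (NT) and forelimb buds (FL) carried few ribosomes for the amount of their mRNA in every library pair examined. They were selected on the measured values themselves. A gene had to have a mean of at least 300 normalized RNA-Seq reads in each of the 3 tissues and a log2 translational efficiency (TE) of -1.3 or lower in all 9 pairs of Ribo-Seq and RNA-Seq libraries. Log2 TE is log2(RPF + 1) minus log2(RNA + 1), where RPF and RNA are the normalized reads of ribosome-protected fragments (RPFs) and of mRNA on the coding sequence (CDS), less the median of that difference over the 11054 genes found in both tables. Of these genes 8022 passed the RNA minimum, 160 were low in all 9 pairs, and 9 of the 160 were left out by the first letters of their symbol (zinc finger and solute carrier genes and *Arhgef25*). The 151 genes are 1.88% of the genes past the RNA minimum. Because TE chose them, their low TE is described here and not tested.

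The mesoderm was the GFP+ cells sorted from embryos that carried R26-mTmGflox/+ together with the transgene Tg(T-cre)1LWD/J/+, in which Cre driven by the T promoter switches on membrane GFP in the lineage of the primitive streak. NT and FL were dissected from FVB embryos and hold all of the cell types of those organs. Each tissue had 3 Ribo-Seq and 3 RNA-Seq libraries, numbered as replicates 1 to 3, which gives 18 libraries and 9 pairs. A pair joins libraries of the same tissue and replicate number. The study took NT and FL from the same embryos and split the cells of a sample between Ribo-Seq and RNA-Seq, but neither labels nor methods tie a replicate number to an embryo, so p-values measure the spread between these samples. The mesoderm and the NT and FL were normalized in separate tables, so levels are compared only within a table and TE alone is set side by side across them.

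An mRNA is translated when the small ribosomal subunit binds near its cap, scans the 5'-UTR and starts at an AUG. An AUG in the 5'-UTR (uAUG) opens an upstream open reading frame (uORF) that can take up scanning ribosomes before they reach the main start, and *Atf4* is the textbook case, with a short uORF followed by a uORF that runs past the main start. Transcripts with no coding function, nuclear transcripts and spliced forms that lack the annotated CDS also yield RNA-Seq reads with few RPFs. TE from ribosome profiling does not separate these.

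The libraries held between 11000015 and 50136443 reads on genes. Across the genes in both tables, the log2 TE of FL replicates 1 and 2 correlated at r = 0.94, while FL replicate 3 correlated with them at 0.76 and 0.78 and with NT replicate 2 at 0.84. NT replicate 1 correlated with NT replicates 2 and 3 at 0.67 and 0.50. Over all genes of the NT and FL table, FL replicate 3 correlated with FL replicates 1 and 2 at 0.886 and 0.896 in log2 RPF. In log2 RNA it correlated with them at 0.983 and 0.987. NT replicate 1 correlated with NT replicates 2 and 3 at 0.989 and 0.933 in log2 RPF and at 0.946 and 0.949 in log2 RNA. These are correlations across genes, which are not independent replicates. The results on NT and FL are given with and without the third replicates. *Hoxd13*, a homeobox gene of the distal limb, had 6659 to 9600 normalized RNA-Seq reads in the FL and 54.6 to 191.9 in the NT, and *Dcx*, a gene of young neurons, had 2675 to 7953 in the NT and 301 to 345.3 in the FL. *Tcf15*, a somite gene of the mesoderm list, went the other way in NT replicate 1, with 435.8 normalized reads beside 125.1 and 53.0 in NT replicates 2 and 3 and 83.2 to 143.3 in the FL. Haemoglobin *Hba-x* mRNA was present in every NT and FL library, at 10789 to 23440 normalized reads, and *Epcam*, the only epithelial marker found of 9, had 659 in NT replicate 1, 96 and 107 in NT replicates 2 and 3, and 537 to 690 in the FL. Of the other lists, 5 of 20 mesoderm, 2 of 20 neural and 3 of 12 blood and vessel markers could be found by symbol. The part of such cells in the results was not tested.

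The mean log2 TE of the 151 genes over the 9 pairs ranged from -5.17 to -1.54, with a median of -2.28, or 4.85-fold below the median gene. For 23 genes it was -3 or lower, for 91 between -3 and -2, and for 37 above -2. Their mRNAs were not scarce: the median of the normalized RNA-Seq reads was 1590 in the mesoderm, 1717 in the NT and 1502 in the FL, beside 1374, 1336 and 1317 over all genes past the RNA minimum. RPFs were few, with medians of 305.3, 415.7 and 315.3 normalized reads beside 1282, 1302 and 1292. In 130 genes every Ribo-Seq library held at least 30 reads, and in 7 at least 1 library held 3 reads or fewer. The border of the group is not a gap. Just inside it were *Epc1*, *Dennd4b*, *Tmem183a* and *Rnpepl1*, whose highest values over the 9 pairs were -1.301, -1.307, -1.311 and -1.311. Just outside were *Fndc4*, *Gli1*, *Fastkd3* and *Ndst2* with -1.299, -1.291, -1.288 and -1.285.

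**Figure D1:**
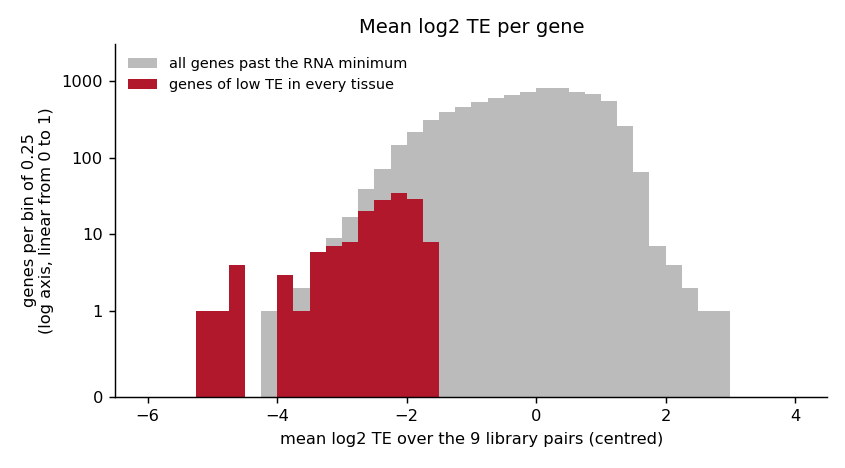
Number of genes (log axis, linear between 0 and 1) by mean log2 TE over the 9 library pairs, in bins of 0.25, for all 8022 genes past the RNA minimum (grey) and for the 151 genes of low TE in every tissue (red). The red bars reach from -5.17 to -1.54, and many genes of equally low mean are grey because at least 1 pair was above -1.3.

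The 12 genes of lowest mean were *1500012F01Rik* (-5.17), *Apcdd1* (-4.83), *AK139721* (-4.62), *Mamdc4* (-4.55), *Gm20605* (-4.55), *Aoc2* (-4.53), *Lime1* (-3.88), *Pla2g4b* (-3.80), *H19* (-3.79), *BC005537* (-3.63), *AI506816* (-3.48) and *Spef1* (-3.45). *1500012F01Rik*, now *Zfas1*, and *AI506816* are annotated as processed transcripts and *H19*, the imprinted RNA of the *Igf2* locus, as a lincRNA, so 3 of the 12 have no annotated CDS in GENCODE. *Gm10222* among the other genes is annotated as a pseudogene, whose reads can belong to its parent gene, and its values are uncertain. In all, 143 of the 151 genes are annotated as coding, 4 as not coding, and 4 found no match by symbol.

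*1500012F01Rik* had 1348, 472 and 332 normalized RNA-Seq reads in the 3 mesoderm libraries and 17.9, 10.4 and 13.6 RPFs. In the FL it had 683, 586 and 781 RNA-Seq reads and 3.21, 10.7 and 16.4 RPFs. RPFs were below RNA-Seq reads by over an order of magnitude in each of these pairs. With counts of 3 reads or fewer set to 3, its TE was at least 34.7-fold below the median gene. *Apcdd1*, a membrane-bound inhibitor of Wnt signalling, had 862, 434 and 440.2 RNA-Seq reads in the NT and 21.7, 65.9 and 11.6 RPFs, and on the same terms lay at least 26.0-fold below. Its second NT pair stood above the other pairs, at -2.73 against values between -6.46 and -4.13. *H19* had 24492, 36527 and 37724 RNA-Seq reads in the mesoderm, 2367, 2058 and 3157 in the NT and 29865, 30946 and 27586 in the FL. Its RPFs were 359, 909 and 2355 in the mesoderm, 432, 575 and 699 in the NT and 1520.1, 1415 and 2832 in the FL. Every library held at least 241 RPF reads of *H19*, so its TE does not rest on counts near 0.

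The CDS of several of these genes overlaps exons of a neighbour on the same strand. *Gm20605* overlaps *Lrch4*, *Lime1* overlaps *Zgpat* and *Pla2g4b* overlaps *Gm28042*. Of the 143 coding genes, 11 had such an overlap (7.69%, beside 4.82% of 21924 coding genes of the annotation) and 22 overlapped an exon on the opposite strand (15.4%, beside 12.3%). Reads in shared sequence cannot be given to either gene, and the share of them in the low TE was not tested.

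**Figure D2:**
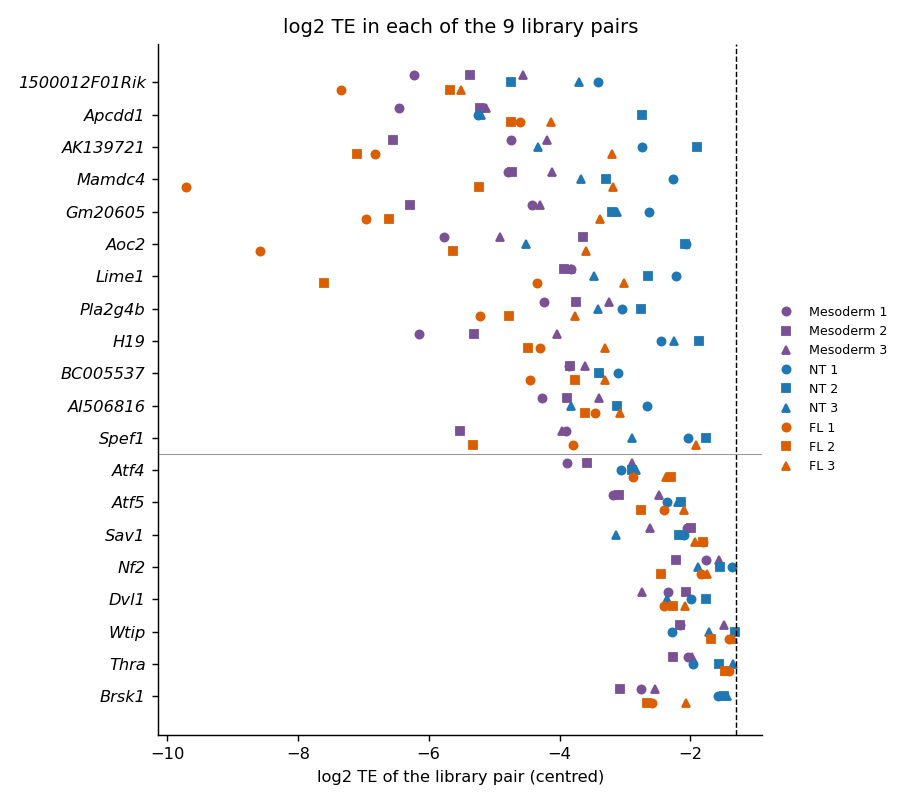
Log2 TE in each of the 9 library pairs (colour, tissue; shape, replicate) for the 12 genes of lowest mean, above the grey line, and for 8 genes described below. The dashed line is the threshold of -1.3; pairs of the lowest genes spread widely, as for *Mamdc4* between -9.72 and -2.26, and those of *Atf4* lie between -3.88 and -2.30.

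The 5 genes with most RNA-Seq reads, not corrected for length, by the lowest of the tissue means, were *Anapc5*, *2610507B11Rik*, *Rnf10*, *Gm10222* and *Erdr1*. *Anapc5*, a subunit of the anaphase-promoting complex, had 13858, 14099 and 14340.0 RNA-Seq reads in the NT and 5418, 5407 and 4695 RPFs. It had the highest mean log2 TE of the group, with -1.65 ± 0.09 in the mesoderm, -1.48 ± 0.18 in the NT and -1.49 ± 0.12 in the FL (SD, n = 3). *Rnf10*, a RING finger ubiquitin ligase, had -2.61 ± 0.16 in the mesoderm, -2.04 ± 0.32 in the NT and -2.19 ± 0.07 in the FL and at least 963 RPF reads in every library. For *Anapc5* and *Rnf10*, low TE was thus measured with many reads. *Gm10222* is the pseudogene named above, and *Erdr1* found no match by symbol.

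Across tissues, the group was not equally low. The median log2 TE over the 151 genes was -2.45 in the mesoderm, -2.06 in the NT and -2.27 in the FL, where that over all genes past the RNA minimum was -0.05, -0.03 and -0.10. Of the 151 genes, 89 were lowest in the mesoderm, 48 in the FL and 14 in the NT, and 101 were highest in the NT. Over all genes past the RNA minimum, 19.2% were lowest in the mesoderm, 40.1% in the FL and 40.7% in the NT. The NT was highest for 43.7% of them, beside 66.9% of the group. At -1.3 or lower in all 3 pairs of a tissue were 10.9% in the mesoderm, 6.52% in the FL and 2.79% in the NT. The rule acts on that low tail, so the order of tissues within the group is not independent of it. The pairs of the FL differed more than the tissues did, with medians of -2.46, -2.52 and -1.91 in replicates 1 to 3. Pairs of the other tissues differed less, with -1.99, -1.88 and -2.18 in NT replicates 1 to 3 and -2.515, -2.60 and -2.47 in mesoderm replicates 1 to 3. The median range between the highest and the lowest tissue mean was 0.61. It was under 0.5 for 54 genes and over 1.5 for 15.

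The range was smallest for *Ptp4a1*, a phosphatase of the PRL family, with -2.07 ± 0.17 in the mesoderm, -2.12 ± 0.31 in the NT and -2.07 ± 0.33 in the FL (SD, n = 3). *Ap1ar* and *Ankrd16* followed, with ranges of 0.06 and 0.09. Among the largest was that of *Aoc2*, an amine oxidase, with -4.78 ± 1.07 in the mesoderm, -2.89 ± 1.41 in the NT and -5.93 ± 2.51 in the FL. FL replicate 1 held no RPF read of *Aoc2*, which put that pair at -8.58 beside -5.63 and -3.59 in the other 2. *H19* had -5.17 ± 1.06 in the mesoderm, -2.19 ± 0.29 in the NT and -4.03 ± 0.63 in the FL, and its 3 NT pairs lay above all mesoderm and FL pairs. *Mamdc4* had -4.54 ± 0.38 in the mesoderm, -3.07 ± 0.73 in the NT and -6.04 ± 3.34 in the FL. The order of the largest ranges rests on libraries near 0 reads. With RPF counts under 3 set to 3, a setting chosen after seeing the data, the range fell from 3.04 to 2.19 for *Aoc2* and from 2.97 to 2.12 for *Mamdc4*, while that of *H19* was 2.98 in both.

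**Figure D3:**
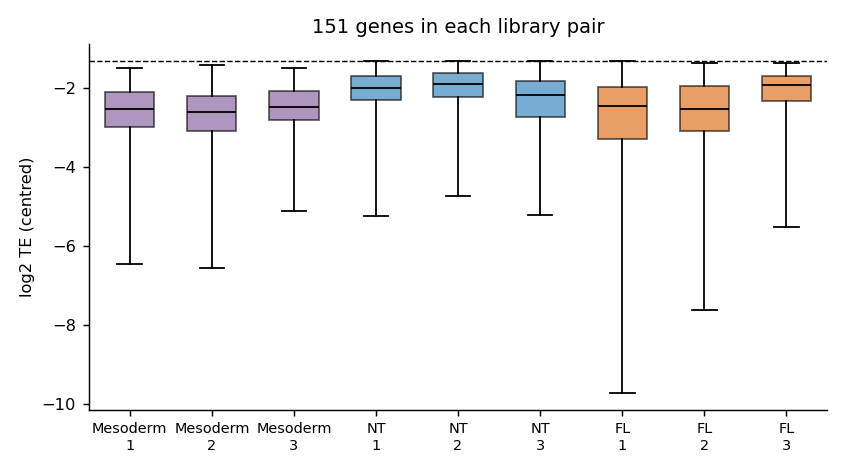
Log2 TE of the 151 genes in each library pair. Boxes span the quartiles with the median as a line and whiskers reach the lowest and highest gene. The dashed line is the threshold of -1.3; FL replicate 3 has a median of -1.91 beside -2.46 and -2.52 in FL replicates 1 and 2.

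By function, 58 of the 151 genes fell into at least 1 of 14 lists of gene families, and 93 into none. The lists were drawn up with earlier results of these data known. They are sets of symbols that do not hold every gene of a family. The kinases *Nlk* and *Csnk1g2* and the Wnt inhibitor *Apcdd1* are in none of them. Symbols could be given to 2340 of the 8022 genes, through tables in which the study had listed genes, and all 151 had an entry, which for 2 of them is a date made by a spreadsheet and no usable symbol, so shares of a list are not shares of its family. No ribosomal protein (of 28 found past the RNA minimum) and no subunit of the respiratory chain (of 42) was in the group.

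The list of protein and lipid kinases had 9 genes in the group, of 130 found past the RNA minimum, with a median of the mean log2 TE of -2.20. Among all genes past that minimum with an entry, the group was 151 of 2340. *Map3k10*, a mixed lineage kinase of the JNK cascade, was lowest, with -4.26 ± 0.62 in the mesoderm, -2.17 ± 0.46 in the NT and -3.52 ± 0.74 in the FL (SD, n = 3). *Dmpk*, the myotonic dystrophy kinase, had -3.68 ± 0.43 in the mesoderm, -2.20 ± 0.90 in the NT and -3.44 ± 1.27 in the FL, and *Cdk16* had -2.53 ± 0.04 in the mesoderm, -2.33 ± 0.36 in the NT and -2.48 ± 0.04 in the FL. *Mast2*, with most RNA-Seq reads of the list, had a mean of -2.05. The list of ubiquitin ligation and removal had 9 genes in the group, of 85 found past the RNA minimum, with a median of -2.08. Among them, *Fbxw2*, *Rnf10* and *Mdm4*, the p53 inhibitor, were lowest with means of -2.97, -2.28 and -2.13.

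Another 9 genes were on the list of channels and pumps, of 42 found past the RNA minimum. *Atp8b2*, *Atp10a*, *Atp11a* and *Atp11b* are P4-type flippases, which move phospholipids between membrane leaflets, and had means of -2.91, -2.54, -2.31 and -2.27. *Trpm7*, a channel fused to a kinase, had -2.88, and *Grik5*, a kainate receptor subunit, -2.46. The 6 genes on the list of GTPase regulators, of 70 found past the RNA minimum, had a median of -2.38. *Fam13b* was lowest with -3.20, and the Rab exchange factors *Dennd4b*, *Dennd6b* and *Dennd5a* had -2.50, -2.39 and -2.35.

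The transcription and chromatin list had 6 genes, of 98 found past the RNA minimum. *Atxn7l3* of the SAGA deubiquitinase module had -2.51, *Satb1* -2.22 and *Epc1* of the NuA4 acetyltransferase -2.21. The cilium and centrosome list had 5 of 49, led by *Mkks*, a chaperonin-like protein of the BBSome pathway, with -2.51. *Sfi1*, *Ick* and *Dzip1* had -2.45, -2.35 and -2.28. In membrane traffic (4 of 53), *Vps54* of the GARP tether had -3.04 and *Trappc10* of the TRAPP tether -2.31. *Snx25*, a sorting nexin, had -2.66 ± 0.28 in the mesoderm, -2.56 ± 0.98 in the NT and -3.77 ± 0.89 in the FL. On the list of DNA replication and repair (3 of 39), *Parp6*, *Helq* and *Ercc8* had -2.75, -2.005 and -1.94.

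On the list of Shh, Wnt, Hippo and Notch pathways, 4 of 24 genes found past the RNA minimum were in the group. Among all genes past it with an entry, it was 151 of 2340. *Dvl1*, the cytoplasmic relay of Wnt receptors, had -2.39 ± 0.34 in the mesoderm, -2.03 ± 0.30 in the NT and -2.25 ± 0.17 in the FL (SD, n = 3). *Sav1*, the scaffold of the Hippo kinases, had -2.22 ± 0.34 in the mesoderm, -2.47 ± 0.58 in the NT and -1.85 ± 0.07 in the FL. *Nf2*, which activates Hippo signalling at the membrane, had -1.85 ± 0.34 in the mesoderm, -1.60 ± 0.26 in the NT and -2.01 ± 0.38 in the FL, and *Wtip*, a LIM protein that binds the Lats kinases, -1.93 ± 0.40 in the mesoderm, -1.77 ± 0.49 in the NT and -1.48 ± 0.18 in the FL. These 4 genes had at least 84 RPF reads in each library.

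Transcript structure was not used to choose the genes. Of the 151 genes, 143 had a coding transcript in GENCODE M21 (GRCm38), taken as the transcript with the longest CDS. Their 5'-UTRs had a median length of 261 nt, beside 164 nt over 20491 coding genes with an annotated 5'-UTR. At least 1 uAUG stood in 123 of the 143 (86%, beside 53.2%), and at least 3 in 63 (44.1%, beside 22.3%). In 58 (40.6%, beside 17.7%) a uORF in another frame than the main one overlapped the main start. The density of uAUGs, summed over genes, was similar, at 0.856 per 100 nt of 5'-UTR beside 0.834. How far 5'-UTR length accounts for the larger counts was not tested. GC content of the 5'-UTR had a median of 68.4% beside 60.0%. The CDS was also longer, with a median of 2013 nt beside 1176 nt, while 3'-UTRs had medians of 705 nt and 731 nt. A purine at -3 with G at +4 of the main AUG, counted with the A of the AUG as +1, was found in 39.2% of the group and 41% of coding genes. All coding genes include many that these tissues do not express, and no test was run.

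The rule cut the range of TE from above, so TE by uAUG number within the group is a description only and bears on no relation between them. The median of the mean log2 TE was -2.35 for the 20 genes with no uAUG, -2.19 for the 60 genes with 1 or 2 and -2.30 for the 63 genes with 3 or more. *Mamdc4*, *Gm20605* and *Aoc2*, among the lowest, had no uAUG in 5'-UTRs of 99, 32 and 30 nt, while *BC005537* had 19 in 1724 nt.

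**Figure D4:**
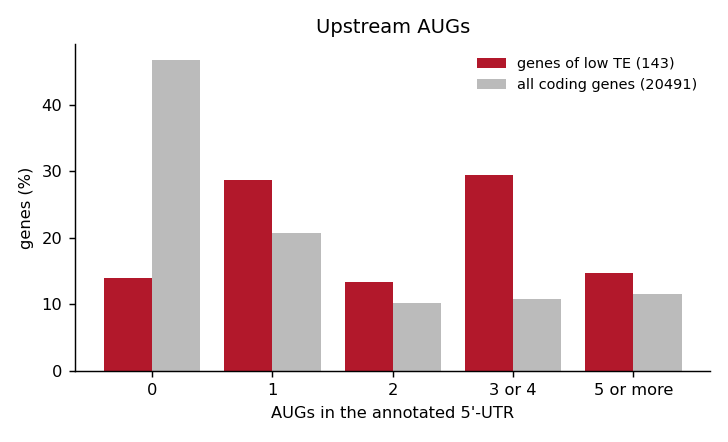
Share of genes (%) by the number of AUGs in the annotated 5'-UTR, for the 143 coding genes of low TE (red) and for 20491 coding genes of GENCODE M21 (grey). No uAUG was found in 14% of the red group and in 46.8% of the grey group.

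*Atf4* and *Atf5*, transcription factors of the stress response whose uORFs are textbook knowledge, were named after their values were seen. *Atf4* had 6329, 5416 and 4313 RNA-Seq reads and 447, 446 and 594 RPFs in the mesoderm, and log2 TE of -3.45 ± 0.51 in the mesoderm, -2.93 ± 0.12 in the NT and -2.52 ± 0.32 in the FL (SD, n = 3). *Atf5* had -2.92 ± 0.38 in the mesoderm, -2.22 ± 0.11 in the NT and -2.42 ± 0.33 in the FL. The start windows below are from GENCODE M21 transcripts on GRCm38, with each AUG in capitals as ATG and positions counted in nt of the spliced transcript from the A of the main AUG. They are shown because uAUGs, and uORFs that overlap the main start, were found in a larger share of the group than of coding genes.
Atf4 uAUG at -475: cttttctctcATGgggcctttag (chr15:80255293-80255315, plus strand)
Atf4 uAUG at -196: tgcggccaccATGgcgtattaga (chr15:80255572-80255594, plus strand)
Atf4 uAUG at -97: ggcctaagccATGgcgctcttca (chr15:80255671-80256214, plus strand, across a splice junction)
Atf4 main AUG: gccccacaacATGaccgagatga (chr15:80256289-80256311, plus strand)
Atf5 uAUG at -252: cgcccgcgcaATGgctctgtagc (chr7:44816525-44816547, minus strand)
Atf5 uAUG at -121: tttcgccgccATGgagtcctcca (chr7:44815275-44816416, minus strand, across a splice junction)
Atf5 main AUG: tgtcacagccATGtcactcctgg (chr7:44815154-44815176, minus strand)
The *Atf4* uAUG at -475 opens a uORF of 36 codons, that at -196 a uORF of 3 codons, and that at -97 a uORF of 59 codons that overlaps the main start. In *Atf5* the uAUG at -252 opens a uORF of 3 codons and that at -121 a uORF of 58 codons that overlaps the main start. Both genes thus hold the same order, a short uORF before an overlapping uORF.

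The 4 genes of the pathway list had other layouts, shown for comparison.
Dvl1 uAUG at -190: gccgcggcggATGggcggccgcg (chr4:155847535-155847557, plus strand)
Dvl1 main AUG: ctgccgcgccATGgcggagacca (chr4:155847725-155847747, plus strand)
Sav1 uAUG at -140: cgcggccaacATGcggcggagcc (chr12:69986895-69986917, minus strand)
Sav1 main AUG: gtccgcgaggATGctgtcccgca (chr12:69986755-69986777, minus strand)
Nf2 uAUG at -157: ctcgcggcccATGctggccgctg (chr11:4849130-4849152, minus strand)
Nf2 uAUG at -97: gccggccaccATGgtggccctga (chr11:4849070-4849092, minus strand)
Nf2 main AUG: acctcgcgccATGgccggagcca (chr11:4848973-4848995, minus strand)
Wtip uAUG at -74: ccggcggacgATGcggcggcgct (chr7:34133121-34133143, minus strand)
Wtip main AUG: gccgacggccATGcagcgctcgc (chr7:34133047-34133069, minus strand)
*Dvl1*, *Sav1* and *Wtip* each have a single uAUG, with uORFs of 51, 33 and 16 codons that end before the main start, and *Nf2* has 2, with uORFs of 33 and 13 codons. For *Sav1* the study obtained by 5' RACE a longer 5'-UTR than the annotated form used here, so its uAUG count holds for the annotated form alone. In these annotated forms, none of the 4 has a uORF that overlaps the main start in another frame. The windows are a description of the annotation, and RPFs on them are not part of the tables used here.

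The values compared here are those the rule used, since it capped TE in every NT and FL pair. Of the genes past the RNA minimum, 2.79% were at -1.3 or lower in all 3 NT pairs and 6.52% in all 3 FL pairs, so the cap left fewer genes in the NT. How far this sets the direction of the changes in RPFs and TE of the group was not tested, and the counts below are a description of these genes. Levels in FL and NT were compared by limma over all 11231 genes of their table, which asks how far mRNA and RPFs of these genes differ between the organs. A gene was called where the change was 2-fold or more and the Benjamini-Hochberg adjusted p was under 0.05. The 151 genes also had to pass the RNA minimum in both organs, which the 11231 genes did not have to. Shares of the group and of all genes, here and below, are therefore not of like sets. In mRNA, 3 of the 151 genes were higher in the FL (1.99%, beside 7.82% of all genes tested) and 14 lower (9.27%, beside 9.49%). The median log2 change of the 151 genes was -0.11, beside 0.02 over all genes.

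*H19* rose most in the FL, with 2367, 2058 and 3157 RNA-Seq reads in the NT and 29865, 30946 and 27586 in the FL, a log2 change of 3.56 ± 0.28 (SE, limma adjusted p = 5.68e-07). The groups did not overlap. *Adamts10*, a secreted metalloprotease, had 2276, 1967 and 1910.3 in the NT and 5519.6, 6569 and 5146 in the FL, a change of 1.48 ± 0.27 (limma adjusted p = 0.000948). *Wtip* had 972, 567 and 906 in the NT and 1986, 2202 and 1962 in the FL, a change of 1.37 ± 0.23 (limma adjusted p = 0.000648). For both, every FL library lay above every NT library.

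Among the 14 genes lower in the FL, *Lrrc16b* fell most. *Lrrc16b*, now *Carmil3*, a regulator of actin capping, had 3202, 2933 and 5385 RNA-Seq reads in the NT and 718, 730.5 and 612 in the FL, a change of -2.43 ± 0.25 (limma adjusted p = 6.9e-06). *Brsk1*, a kinase of neuronal polarity, had 5829.7, 5530.5 and 6426 in the NT and 1576, 1447 and 1458 in the FL, a change of -1.99 ± 0.20 (limma adjusted p = 5.54e-06). *Parp6*, *Abca7* and *Thra*, the thyroid hormone receptor alpha, changed by -2.07 ± 0.22, -1.98 ± 0.38 and -1.55 ± 0.20 on the log2 scale (limma adjusted p = 9.09e-06, 0.00142 and 6.11e-05). In bulk tissue, fewer cells of a type and less RNA per cell cannot be told apart.

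In RPFs, 41 of the 151 genes were lower in the FL (27.2%, beside 17.8% of all genes tested) and 5 higher (3.31%, beside 14.9%). The median log2 change was -0.49, beside 0.04 over all genes. Of the 41, 12 were also lower in mRNA (29.3%, beside 45.5% of the 2003 genes lower in RPFs) and 29 were not called in mRNA (70.7%, beside 54.5%). The split depends on libraries. Without the third replicates of both tissues, 59 genes were lower (39.1%, beside 26%) and 5 higher (3.31%, beside 24.1%), and without NT replicate 1, 29 were lower (19.2%, beside 14.2%).

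*Brsk1* had 1949, 2011 and 2495 RPFs in the NT and 263, 232 and 352 in the FL, a change of -2.94 ± 0.20 (SE, limma adjusted p = 1.19e-07), and *Lrrc16b* 838, 892 and 671 in the NT and 94.6, 91.7 and 122 in the FL, a change of -2.95 ± 0.25 (limma adjusted p = 9.45e-07). Both were clear of overlap. *AK139721*, a cDNA without a symbol match, had 499, 549.7 and 73.9 RPFs in the NT and 11.2, 10.7 and 229.9 in the FL, a change of -3.10 ± 0.98 (limma adjusted p = 0.0216). Here the third libraries reversed the order of the others, and the groups overlap. *Aoc2* had 91.1, 107 and 18.8 in the NT and 0, 8.53 and 34.3 in the FL, a change of -3.06 ± 0.97 (limma adjusted p = 0.0219), and *Gm20605* 60.7, 26.8 and 52.2 in the NT and 1.60, 2.13 and 28.4 in the FL, a change of -2.86 ± 0.73 (limma adjusted p = 0.00681). These 2 also overlap. The calls of *AK139721* and *Aoc2* were lost without any of NT replicate 1, NT replicate 2, FL replicate 1 or FL replicate 2 (limma adjusted p between 0.0556 and 0.126), and that of *Gm20605* without FL replicate 1 (0.0505). The call of *AK139721* was also lost with edgeR (adjusted p = 0.0769) and DESeq2 (0.089). With FL replicate 1 at 0 reads, the change of *Aoc2* was -4.20 with a pseudocount of 0.1, -1.92 with 8 and -1.66 without that replicate, and that of *Gm20605* was -1.78 with a pseudocount of 8.

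By list, 5 of 6 GTPase regulators, 3 of 9 channels and pumps and 2 of 9 kinases were lower in RPFs of the FL. On the pathway list it was 1 of 4 (*Dvl1*, -1.13 ± 0.19, limma adjusted p = 0.000365). The share over all genes was 17.8%. Counts were 1 of 9 for ubiquitin ligation and removal, 1 of 6 for transcription and chromatin and 1 of 4 for membrane traffic. For DNA replication and repair the count was 1 of 3, and for cilium and centrosome 0 of 5. *Nlk*, a kinase in none of the lists, was lower as well (-1.74 ± 0.27, limma adjusted p = 0.000217). *H19*, *Wtip*, *Gpbp1l1*, *Sav1* and *Lrrc56* were higher. *Sav1* had 232, 257 and 122 RPFs in the NT and 443, 437 and 452 in the FL, a change of 1.19 ± 0.26 (limma adjusted p = 0.00238), with a change of 0.58 ± 0.26 in mRNA (limma adjusted p = 0.135) that was not called. Without NT replicate 3 its RPF change was 0.86, below 2-fold, and *Lrrc56* was no longer called without NT replicate 1 or 2 or FL replicate 1 or 2.

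**Figure D5:**
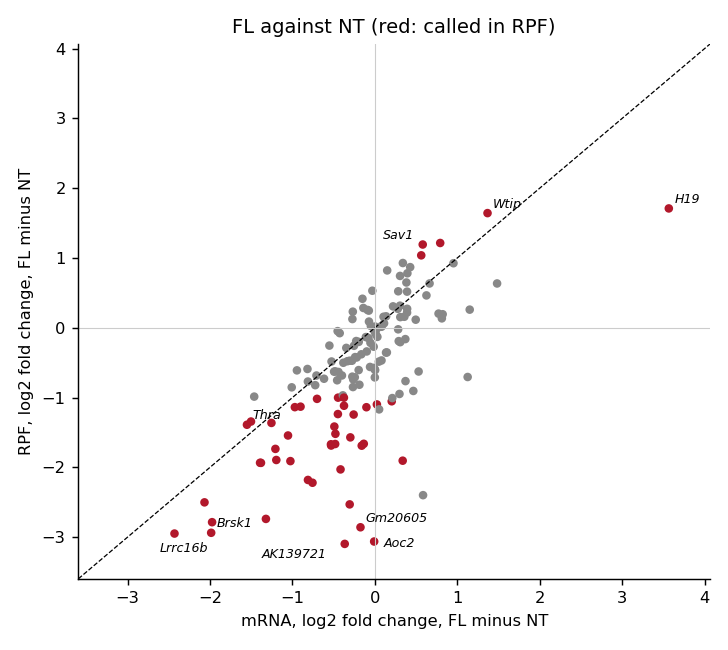
Log2 change between FL and NT in RPFs (vertical) against that in mRNA (horizontal) for the 151 genes, with genes called in RPFs in red and the line of equal change dashed. *H19* lies at 3.56 and 1.71, below the line, and 41 of the red points lie at -1 or lower in RPFs.

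The change in TE between the organs is the interaction of library type with tissue, called where the change was 2-fold or more with an adjusted p below 0.2, as the study set it. At these thresholds the DESeq model of the study called far more genes in each direction, and it examined some of them by polysome fractionation. The limma fit here called 45 of 11231 genes, so few calls below are a result of this fit. With limma, only *H19* was called among the 151 genes (0.662%, beside 0.276% of all genes tested that were lower, 0.125% that were higher and 0.401% in either direction), lower in the FL with a log2 change of -1.85 ± 0.39 (SE, limma adjusted p = 0.152). Its pairs had log2 TE of -2.44, -1.87 and -2.25 in the NT and -4.30, -4.48 and -3.30 in the FL and did not overlap. The call was lost without any of NT replicate 1, NT replicate 2, FL replicate 1 or FL replicate 2 (limma adjusted p between 0.49 and 0.746). It was also lost with a block of samples, which joins both library types by tissue and replicate number (limma adjusted p = 0.256). A block for the replicate numbers lost it too (limma adjusted p = 0.28). At an unadjusted p under 0.05, 18 of the 151 genes differed (11.9%, beside 16.9% of all genes). edgeR called none of the 151 (beside 0.187% of all genes lower and 0.16% higher), and DESeq2 called 9 lower in the FL (5.96%, beside 2.55%) and none higher (beside 5.08%).

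The count changed with the libraries used. Without the third replicates of both tissues, 51 of the 151 genes were lower in the FL (33.8%, beside 22.3% of all genes) and none was higher (beside 20.7%). Without FL replicate 3 alone, 42 were lower (27.8%, beside 19.3%), and without NT replicate 3 alone 15 (9.93%, beside 11%). Without NT replicate 1, limma called none of the 151 and 0 of all genes. In that fit 624 of the 11231 genes had an unadjusted p under 0.05, beside 1901 in the limma fit of all libraries. Among the 51 were *H19*, *Map3k10*, *Dmpk*, *Trpm7*, *Atp8b2*, *Dennd4b* and *Brsk1*. *Map3k10* had log2 TE of -2.12, -1.74 and -2.65 in the NT and -3.73, -4.14 and -2.70 in the FL, a change of -1.37 ± 0.41 with an adjusted p of 0.291 in the limma fit of all libraries and a change of -2.001 with an adjusted p of 0.000549 without the third replicates. *Atf4*, *Dvl1*, *Sav1*, *Nf2* and *Wtip* were called in neither fit, with changes in the fit of all libraries of 0.40 ± 0.27, -0.23 ± 0.27, 0.61 ± 0.36, -0.43 ± 0.32 and 0.28 ± 0.33.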

How the data were processed

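Ribo-Seq and RNA-Seq of mesoderm, NT and FL at E11.5 were analysed from the 2 deposited tables. The authors trimmed adapters with cutadapt, removed rRNA, tRNA and snRNA reads, mapped what remained to mm10 transcripts, 1 canonical isoform for each UCSC known gene (Bowtie2 is named in the submitters' processing notes), and counted uniquely mapped reads within the CDS, leaving out codons at both ends. The signal values that the authors deposited are these counts divided by the DESeq effective library size. In all 18 libraries 100% of low values were whole multiples of a single step, within 0.1 of a read, which gave the reads used by the count tests. Symbols came from the study's supplementary tables, which pair them with UCSC identifiers. Columns of the authors' own comparisons were not used.

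The members, lists and tests were chosen with earlier results of these data known. FL and NT were compared in R 4.3.3 by limma 3.58.1, on the log2 of normalized reads plus a pseudocount of 1, over 12 libraries and 11231 genes. edgeR 4.0.16 and DESeq2 1.42.0 on recovered reads were alternatives. The tests were checked on simulated data. Genes were matched to GENCODE M21 by symbol (141), or older symbol (6). Named were the 12 genes of lowest mean log2 TE, the 3 lowest and the most abundant of each list, the largest changes called, the 5 with most mRNA, the pathway genes, the neighbours of the threshold and the widest and narrowest ranges over tissues. *Atf4*, *Atf5*, *Atp11a* and *Atp11b* were added after their values were seen.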

Additional observations from a re-analysis of the deposited data

Results flagged for a closer look

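*H19* was the only gene of the group whose TE was called different between FL and NT by limma's test of the difference, with a log2 change of -1.85 (limma interaction, adjusted p = 0.152). Its mRNA was higher in the FL by 3.56 ± 0.28 and its RPFs by 1.71 ± 0.28 on the log2 scale (SE). The call was lost with edgeR (adjusted p = 0.214) and with the block of samples (limma adjusted p = 0.256) or of replicate numbers (0.28), and kept with DESeq2 (adjusted p = 0.00898). It is annotated as a lincRNA.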

How the results depend on the processing

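The group held 151 genes. Its size was 311 with a threshold of -1, 82 with -log2(3), 96 with a mean RNA of at least 1000, and 177 to 239 when a replicate of every tissue was left out. All 151 remained with centring on all genes of each table and with a pseudocount of 0.5, and 148 with a pseudocount of 8. With the transcript of the longest 5'-UTR, the median 5'-UTR was 354 nt (beside 218 nt over 20952 coding genes) and 93.0% had a uAUG (beside 63.2%). Leaving out 1 pair at a time, members called were 14 to 19 in mRNA, 33 to 61 in RPFs and 0 to 42 in TE. Calls among all 11231 genes moved too. In RPFs they were 1464 lower and 1199 higher without FL replicate 1 (33 members), and 2715 lower and 2383 higher without FL replicate 3 (61 members). In TE they were 0 and, without FL replicate 3, 2167 lower and 1805 higher. In mRNA they were 980 lower and 783 higher without NT replicate 3 (14 members), and 960 and 760 without NT replicate 2 (19 members). The TE count was 0 by edgeR (21 lower and 18 higher among all 11231 genes), 9 by DESeq2 (286 lower and 570 higher) and 51 without the third replicates of both tissues (2504 lower and 2329 higher). Both organs were dissected from shared embryos, but no source ties the replicate numbers to them, and deviations of same-numbered NT and FL libraries correlated at -0.58 to -0.02. Those of same-numbered Ribo-Seq and RNA-Seq libraries correlated at -0.28 to 0.35 in the NT and 0.05 to 0.12 in the FL. In the mesoderm they correlated at 0.57 to 0.74. With the replicate block of numbers 17 genes of the group were called in mRNA, 44 in RPFs and 0 in TE. Among all 11231 genes, 1032 were lower and 821 higher in mRNA, 1866 and 1604 in RPFs, and 5 and 1 in TE. The block of samples, which joins RPF and RNA libraries of the same tissue and number, gave 0 in TE (3 lower and 1 higher among all genes). Scaling to the library total moved the median log2 change of all genes from 0.04 to -0.105 in RPFs and from 0.01 to -0.157 in TE, and reversed no named change. Genes with few RPF reads limit the precision of TE, and PCR duplicates are not marked.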
